A study of Mus musculus with 12 samples.

Results

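Collagen chain genes were taken as every row of the deposited gene count table whose symbol has the form Col, a type number, a and a chain number. There were 44 such genes among 23420 in the table, and they were divided by the structure of the protein they encode into 11 fibrillar chains, 6 basement membrane (type IV) chains, 9 fibril-associated chains (FACITs, which carry interrupted helices and sit on or between fibrils) and 18 other chains. Of these, 33 had enough reads to be tested for differential expression (10 fibrillar, 4 basement membrane, 7 FACIT and 12 other chains). Poly(A) RNA was sequenced from 12 subcutaneous tumors of B16-F10, a melanoma cell line of C57BL/6J origin, grown in male C57BL/6J mice, with 3 tumors in each of 4 groups. Obese mice had been fed from 4 to 5 weeks of age for 15 weeks with a Western diet containing 0.2% cholesterol, and nonobese mice received its matching control diet. Within each diet, mice received either 29F.1A12, an anti–PD-1 antibody that blocks an inhibitory receptor of T cells, or the isotype control antibody 2A3. Injections were intraperitoneal, 3 a week at 10 mg/kg, and began when tumors could be felt. The names of the groups combine diet and antibody (nonobese isotype and so on), and values for 3 tumors are always given in the order of replicates 1, 2 and 3.

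Collagens are secreted proteins in which 3 chains wind into a helix. Fibrillar types I, III and V assemble into the fibrils of connective tissue and are made mainly by fibroblasts, whereas type IV forms the sheet-like network of basement membranes under epithelia and around vessels, muscle and fat cells. Type VI forms beaded microfilaments, and types XV and XVIII bridge basement membranes to the matrix. In tumors, collagen comes largely from host stromal cells, and dense fibrillar matrix is known to affect the movement of T cells.

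Library totals ran from 14022929 reads in obese isotype tumor 2 to 33871843 in nonobese isotype tumor 2. The 7 melanocyte lineage markers chosen to check the cell line label summed to between 24720 and 30283 CPM (the read count of a gene relative to its library size, which was scaled by trimmed mean of M-values) in the 12 tumors, and none was called in any comparison. All 44 collagen genes together took from 0.0810% of counts in obese isotype tumor 2 to 0.519% in nonobese isotype tumor 3. Obese isotype tumor 2 was the lowest of the 12 tumors for 19 of the 33 tested chains, and nonobese isotype tumor 3 was the highest for 14. Since whole tumors were sequenced, fewer cells of a type and less RNA per cell cannot be told apart in any of the values that follow.

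The most abundant collagen mRNAs belonged to types I, III and IV. Scaled by the length of merged exons in GENCODE M21, mean levels over the 12 tumors were 63.0 CPM per kilobase for Col1a1 and 62.8 for Col4a1. Levels followed at 51.3 for Col4a2, 34.9 for Col3a1 and 25.2 for Col1a2. The first 8 chains were completed by Col6a1 at 19.4, the FACIT chain Col16a1 at 13.3 and Col15a1 at 11.2 CPM per kilobase. Col1a1 and Col4a1 did not differ beyond their spread between tumors, which was 7.23 to 163 for Col1a1 and 26.1 to 86.3 for Col4a1. When the longest transcript was used as the length, Col4a1 came first at 70.9 and Col1a1 second at 69.7, and Col3a1 (61.5) and Col1a2 (58.5) came before Col4a2 (52.7), so only the membership of these 5 and not their order was independent of the length chosen.

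At the other end, 11 members did not pass the filter on low counts. Col26a1 had 1 read in all 12 tumors together, Col19a1 4, Col4a6 6, Col22a1 12 and Col6a5 13. Col6a6 had 27, Col4a3 29, Col24a1 41, Col17a1 (the hemidesmosomal collagen of keratinocytes) 49, Col25a1 51 and Col28a1 72 reads. A tumor with 0 reads still allows 3 reads, which is 0.0882 to 0.212 CPM at these depths and covers counting error only. The cartilage chains Col2a1, Col9a1, Col9a2, Col9a3, Col11a1 and Col11a2 were tested but low, with mean levels from 0.0957 CPM per kilobase for Col11a1 to 0.639 for Col11a2.

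Type IV chains are encoded in 3 head-to-head pairs, in which neighboring genes run in opposite directions. The sequences of 4 of these starts are shown, from a pair in which both genes were abundant and a pair in which nearly all reads came from 1 gene. Each window covers 250 bases before and 50 bases after the RefSeq start and is written along the gene's own strand, with capitals marking letters that match, on either strand, a CCAAT box (CCAAT), a GC box (written GGGCGG) or a TATA box (written TATAAA).
Col4a1 promoter, chr8:11312777-11313076, minus strand, GRCm38.p6: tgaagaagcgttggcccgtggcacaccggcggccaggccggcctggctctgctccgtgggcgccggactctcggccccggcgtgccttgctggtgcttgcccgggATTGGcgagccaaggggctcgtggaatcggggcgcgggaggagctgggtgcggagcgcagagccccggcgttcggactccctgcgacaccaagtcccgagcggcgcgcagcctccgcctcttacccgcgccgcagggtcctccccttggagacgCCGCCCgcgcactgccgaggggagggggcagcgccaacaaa
Col4a2 promoter, chr8:11312555-11312854, plus strand, GRCm38.p6: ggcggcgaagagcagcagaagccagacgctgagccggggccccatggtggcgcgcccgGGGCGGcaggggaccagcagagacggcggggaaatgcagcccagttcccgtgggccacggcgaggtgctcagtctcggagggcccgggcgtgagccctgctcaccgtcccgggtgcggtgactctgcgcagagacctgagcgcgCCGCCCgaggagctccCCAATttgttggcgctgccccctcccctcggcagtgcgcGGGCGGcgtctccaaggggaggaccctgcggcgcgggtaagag
Col4a5 promoter, chrX:141475169-141475468, plus strand, GRCm38.p6: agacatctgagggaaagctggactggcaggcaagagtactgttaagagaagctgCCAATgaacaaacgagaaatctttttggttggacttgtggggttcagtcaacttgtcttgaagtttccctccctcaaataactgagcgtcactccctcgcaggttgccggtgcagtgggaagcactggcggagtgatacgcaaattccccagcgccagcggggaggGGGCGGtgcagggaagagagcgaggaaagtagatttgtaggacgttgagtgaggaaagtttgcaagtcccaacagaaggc
Col4a6 promoter, chrX:141474027-141474326, minus strand, GRCm38.p6: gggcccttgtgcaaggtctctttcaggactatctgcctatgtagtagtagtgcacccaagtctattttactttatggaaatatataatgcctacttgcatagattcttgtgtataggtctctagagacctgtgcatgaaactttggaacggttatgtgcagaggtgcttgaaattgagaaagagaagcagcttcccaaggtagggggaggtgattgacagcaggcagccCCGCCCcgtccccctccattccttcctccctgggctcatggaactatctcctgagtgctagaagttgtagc

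The annotated 5′ ends of Col4a2 (chr8:11312805-11449287, plus strand) and Col4a1 (chr8:11198423-11312826, minus strand) shared 22 bases, and both genes were among the most abundant. Those 22 bases are exonic in both genes, and reads lying there cannot be assigned if strand was not used in counting. Col4a4 and Col4a3 on chromosome 1 lie 71 bases apart, yet Col4a4 ranged from 7.41 to 14.7 CPM while Col4a3 had 29 reads in all. Col4a5 and Col4a6 on the X chromosome start 1308 bases apart, and Col4a5 ranged from 19.02 to 28.2 CPM against 6 reads for Col4a6. Thus both members of the pair were abundant at Col4a1/Col4a2, whereas nearly all reads of the other pairs came from 1 of the genes.

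Of the 44 members, 35 could be matched to RefSeq promoter windows of GRCm38.p6, with 38 windows in total. A CCAAT box was found in 13 of the 38 windows (37.4% of all 32851 mouse windows), a GC box in 23 (35.7% of all windows) and a TATA box in 5 (13.6% of all windows), both strands searched. Col4a2 held 1 CCAAT box and 3 GC boxes, and Col4a1 held 1 of each. Their windows overlap, and the GC box of Col4a1 is the same site as 1 of those of Col4a2, read from the other strand. That site was therefore counted in both windows. These matches are descriptions of the letters in the window and show no binding.

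Levels of most chains differed widely between tumors. Among the 29 tested chains with more than 3 reads in every tumor, the highest tumor exceeded the lowest by a median of 6.16-fold, compared with 1.63-fold over 12337 genes of the same kind. A range above 5-fold was seen for 18 of the 29 chains (62.1%) and for 5.56% of all genes. Col1a1 had the widest range at 22.6-fold, followed by Col14a1 (14.6), Col1a2 (14.3) and Col3a1 (12.3). Only 4 of the 29 stayed within 2.5-fold, against 82% of all genes. These were Col4a5 (1.48-fold), Col4a4 (1.98-fold), Col16a1 (2.01-fold) and Col10a1 (2.36-fold), so that chains of 3 different classes were among the steadiest.

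**Figure D1:**
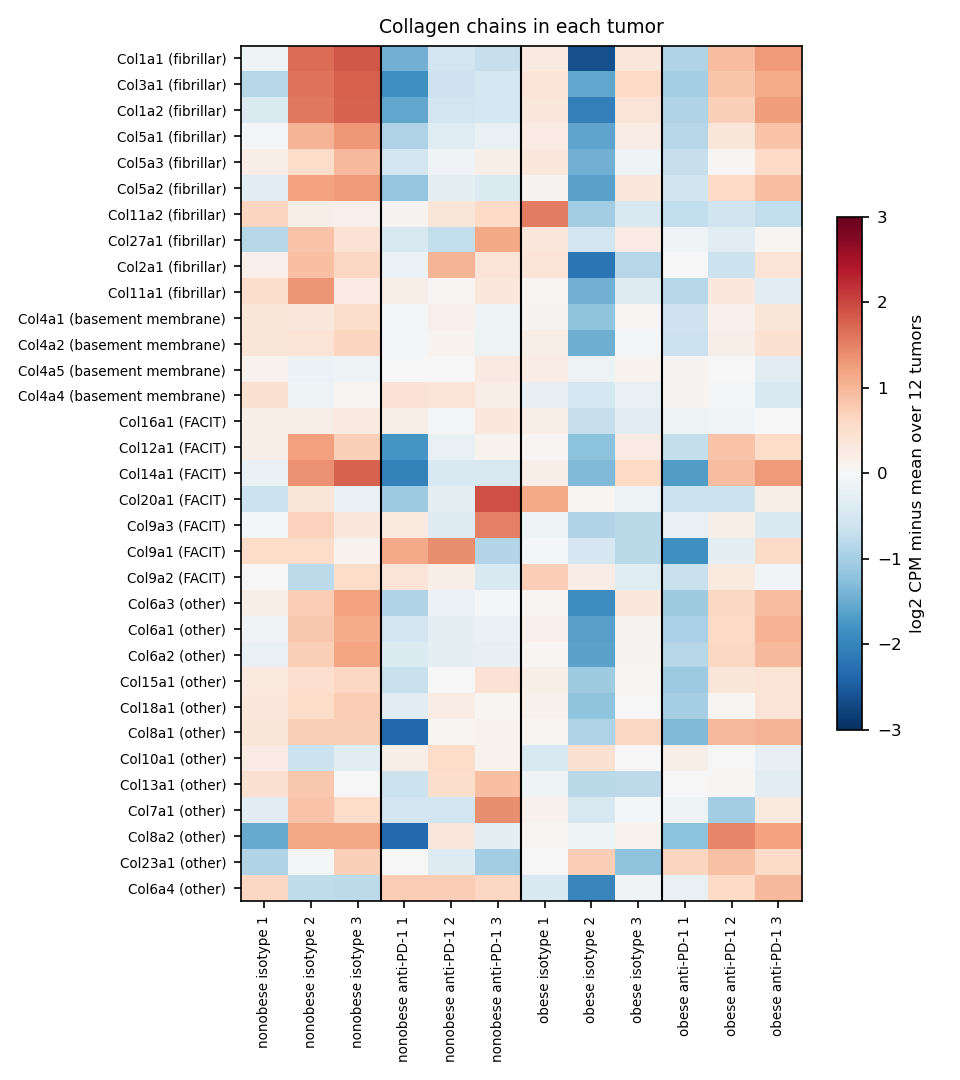
Heat map of the 33 tested collagen chains (rows, by class) in the 12 tumors (columns, 4 groups of 3 separated by lines), with color showing log2 CPM minus the chain's mean over 12 tumors. Nonobese isotype tumors 2 and 3 and obese anti–PD-1 tumors 2 and 3 are red for most fibrillar and type VI chains, obese isotype tumor 2 is blue for most chains, and Col4a5 is pale throughout.

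Anti–PD-1 was first compared with isotype control in nonobese mice. Of the 33 chains tested, 8 were called lower and 0 higher, where a call is a difference of more than 2-fold whose unadjusted P was under 0.05 in edgeR's quasi-likelihood test, the thresholds of the study. Of all 13095 genes tested, 2.31% were called lower and 0.115% higher in this comparison. The lower chains were the fibrillar Col1a1, Col1a2, Col3a1, Col5a1 and Col5a2, the FACITs Col12a1 and Col14a1, and Col6a1. None passed the Benjamini-Hochberg false discovery rate (FDR) of 0.05 over all genes in edgeR, where the lowest FDR of a chain was 0.833, nor did any in DESeq2, which called 7 by the same fold and unadjusted P. Of all 13095 genes tested, 0 passed that FDR in edgeR and 9 in DESeq2. Without the fold threshold, 8 chains had an unadjusted P under 0.05 in edgeR, compared with 5.23% of all genes. The median log2 fold change was -1.04 for fibrillar, -0.12 for basement membrane, 0.11 for FACIT and -0.53 for other chains, compared with 0.02 for all genes tested. When each tumor was left out the fibrillar median ran from -1.27 to -0.90, the basement membrane median from -0.18 to -0.09 and that of other chains from -1.04 (without nonobese anti–PD-1 tumor 3) to -0.43. The basement membrane median was above 0 with genes of at least 1 count. It was farther below 0 when Col15a1 and Col18a1 were added to that class. The FACIT median ran from -0.41 to 0.31 and was below 0 without nonobese anti–PD-1 tumor 1 or 3 or nonobese isotype tumor 2.

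Col1a1, which encodes the major chain of type I collagen, reached 266, 943 and 1071 CPM in nonobese isotype and 108, 196 and 183 CPM in nonobese anti–PD-1 tumors. In obese mice it was at 354, 47.4 and 374 CPM under isotype and 158, 553 and 708 CPM under anti–PD-1. All 3 nonobese anti–PD-1 tumors lay below all 3 nonobese isotype tumors, although nonobese isotype tumor 1 was much closer to them than tumors 2 and 3. The log2 fold change in nonobese mice was -2.22 (SE 0.70, edgeR FDR = 0.833).

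Col1a2, its partner in the type I trimer, behaved likewise, with 170, 690 and 794 CPM in nonobese isotype and 78.8, 159 and 161 CPM in nonobese anti–PD-1 tumors (log2 fold change -2.05, SE 0.67). Obese tumors had 291, 55.6 and 301 CPM under isotype and 123, 379 and 551 CPM under anti–PD-1. Col3a1, the chain of type III collagen of pliable tissues, was at 140, 779 and 864 CPM in nonobese isotype and 70.3, 164 and 175 CPM in nonobese anti–PD-1 tumors (-2.12, SE 0.69), where tumor 1 of the isotype group lay inside the anti–PD-1 range. Its obese values were 335, 85.7 and 383 CPM under isotype and 125, 447 and 540 CPM under anti–PD-1. In both obese groups a low tumor, isotype 2 and anti–PD-1 1, stood apart from the other two.

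The type V chains, which start fibrils and limit their width, differed less. Col5a1 measured 64.2, 132 and 160 CPM in nonobese isotype and 34.2, 50.5 and 55.7 CPM in nonobese anti–PD-1 tumors (-1.34, SE 0.47), with no overlap. Col5a2 had 32.7, 94.6 and 98.8 CPM against 18.1, 33.8 and 30.9 CPM (-1.44, SE 0.50), and here the lowest isotype tumor fell within the anti–PD-1 values. Obese isotype and obese anti–PD-1 tumors had 77.7, 21.9 and 75.7 and then 36.0, 83.5 and 118 CPM of Col5a1. For Col5a2 the obese values were 43.1, 13.4 and 51.1 CPM and 26.9, 62.0 and 76.6 CPM. Col5a3 did not pass (-0.74, SE 0.38), although its nonobese groups did not overlap.

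The promoter windows of Col1a2 and Col3a1 are given because each of these chains followed Col1a1 across tumors (Pearson r of 0.990 and 0.948), from different chromosomes. Col1a1 itself had no matched window. The correlation of Col1a2 with Col3a1 was not computed, and control by these sequences was not tested. Capitals again mark CCAAT, GC and TATA boxes on either strand.
Col1a2 promoter, chr6:4505368-4505667, plus strand, GRCm38.p6: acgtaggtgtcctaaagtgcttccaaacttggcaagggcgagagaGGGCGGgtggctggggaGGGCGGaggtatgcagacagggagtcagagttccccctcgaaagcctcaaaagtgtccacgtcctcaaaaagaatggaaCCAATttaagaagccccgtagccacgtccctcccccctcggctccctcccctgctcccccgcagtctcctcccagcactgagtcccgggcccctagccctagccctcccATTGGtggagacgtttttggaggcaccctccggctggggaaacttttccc
Col3a1 promoter, chr1:45311288-45311587, plus strand, GRCm38.p6: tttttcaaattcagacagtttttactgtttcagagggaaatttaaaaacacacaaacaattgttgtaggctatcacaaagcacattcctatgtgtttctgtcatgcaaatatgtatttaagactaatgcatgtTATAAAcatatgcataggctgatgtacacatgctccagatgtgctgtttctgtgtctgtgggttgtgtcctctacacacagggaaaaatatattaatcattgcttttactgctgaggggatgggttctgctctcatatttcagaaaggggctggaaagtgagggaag
The Col1a2 window held 2 CCAAT boxes, 2 GC boxes and no TATA box, while that of Col3a1 held 1 TATA box and neither of the others. Their genes span chr6:4504814-4541544 and chr1:45311538-45349706, both on the plus strand, and Col1a1 spans chr11:94936224-94953042 on the plus strand.

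Among FACITs, 2 of 7 tested chains were called. Col14a1, a fibril-binding chain of dense connective tissue, had 6.23, 18.5 and 24.5 CPM in nonobese isotype and 1.68, 5.16 and 5.08 CPM in nonobese anti–PD-1 tumors (-2.02, SE 0.68). Col12a1, a related chain, had 14.7, 30.7 and 21.5 CPM and 3.76, 11.1 and 14.001 CPM (-1.21, SE 0.49). Neither chain overlapped between the groups. In contrast, Col16a1, the most abundant FACIT per length, measured 99.9, 99.6 and 106 CPM in nonobese isotype and 100, 85.0 and 111 CPM in nonobese anti–PD-1 tumors, and its log2 fold change of -0.05 had an SE of 0.17. The low FACIT chains Col9a1, Col9a2, Col9a3 and Col20a1 had log2 fold changes from 0.11 to 0.88, and none was called.

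Type IV chains had smaller differences in nonobese mice, and none was called. Col4a1 was at 573, 570 and 644 CPM in isotype and 435, 499 and 403 CPM in anti–PD-1 tumors, and Col4a2 at 409, 427 and 501 against 313, 342 and 289 CPM. For both, the groups did not overlap, but their log2 fold changes of -0.42 (SE 0.29) and -0.50 (SE 0.33) did not reach a 2-fold change or P below 0.05. Col4a4 had 14.7, 9.85 and 11.1 CPM in isotype and 14.5, 14.2 and 12.2 CPM in anti–PD-1 tumors (0.20, SE 0.19). For Col4a5 these were 25.4, 20.7 and 21.1 CPM and 23.8, 23.7 and 28.2 CPM, with the tumors of both groups interleaved.

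The chains Col6a1, Col6a2 and Col6a3 of type VI were near the threshold. Col6a1 was called, at 68.3, 130 and 161 CPM in nonobese isotype and 49.5, 60.1 and 64.2 CPM in nonobese anti–PD-1 tumors (-1.05, SE 0.48), whereas Col6a2 (-0.98, SE 0.46) and Col6a3 (-1.09, SE 0.51), its partners in the same trimer, narrowly were not. The 3 chains had similar fold changes, and their nonobese groups did not overlap. Col6a2 had 56.2, 108 and 150 CPM against 49.5, 54.0 and 55.9 CPM, and Col6a3 had 99.9, 149 and 204 CPM against 47.6, 78.8 and 85.7 CPM. Of all 33 chains, 13 (39.4%) had nonobese anti–PD-1 tumors wholly below isotype tumors, compared with 5.37% of all genes tested, and 0 lay wholly above (5.81%). Col6a4, with at most 16 reads in a tumor, had the highest log2 fold change of any chain (1.02, SE 0.68) and was not called. Without nonobese anti–PD-1 tumor 1, whose values were the lowest of its group for all 8 called chains, 5 chains were called, 4 of them lower.

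**Figure D2:**
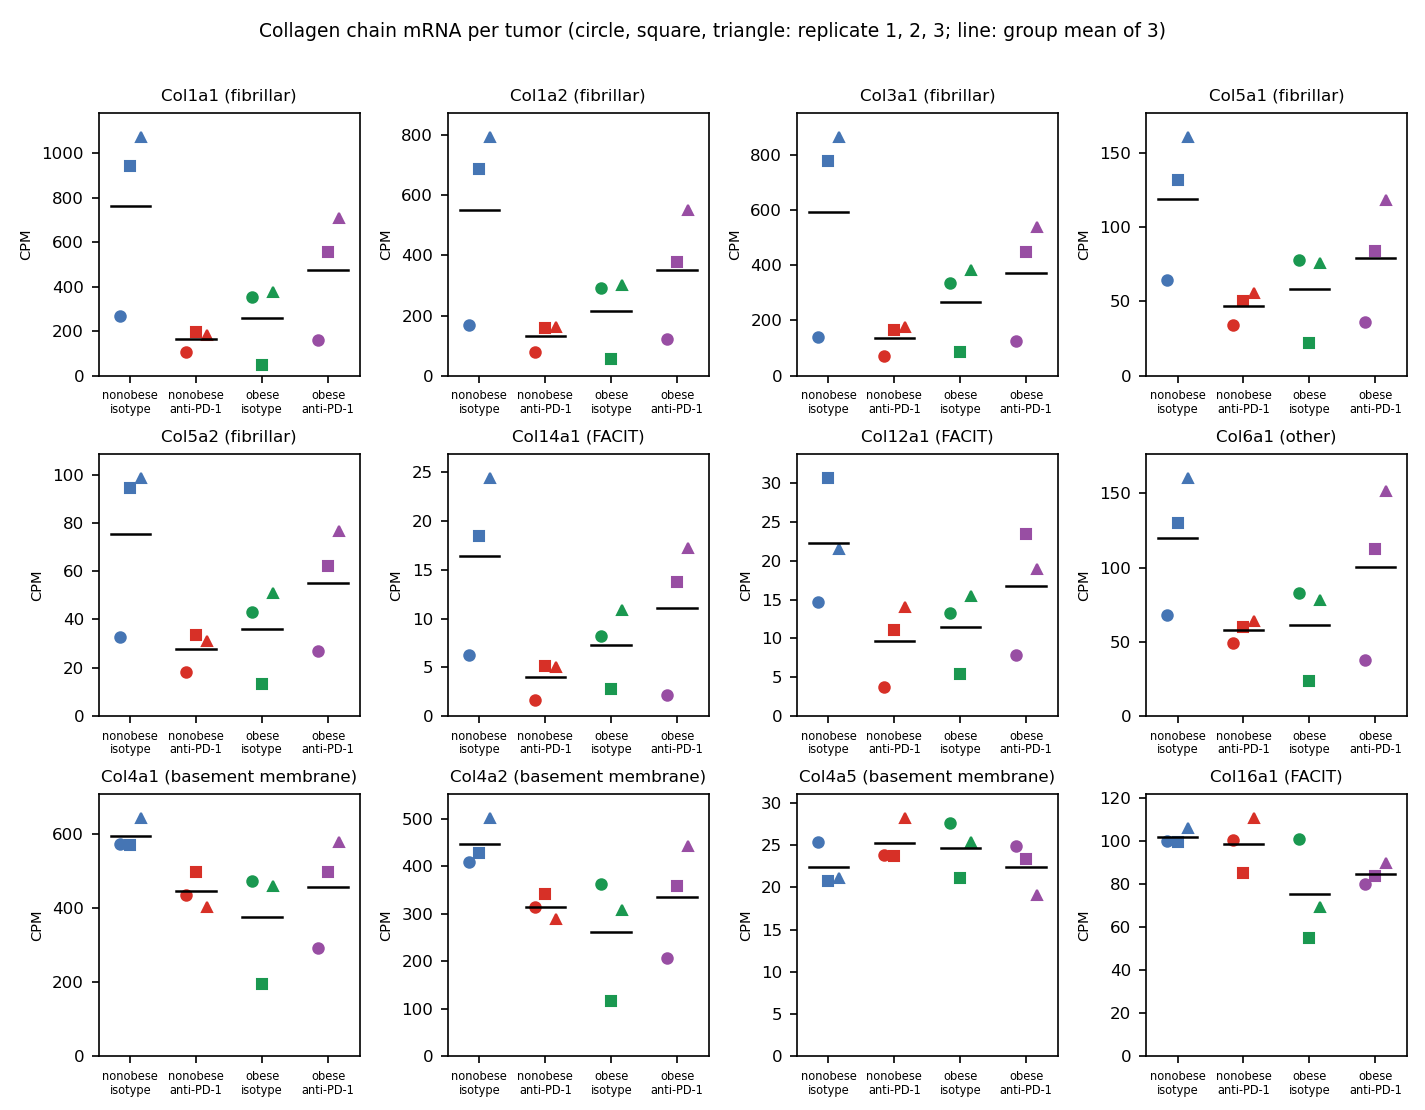
CPM of 12 collagen chains (vertical axes, linear from 0) in the 4 groups, with circles, squares and triangles for replicates 1, 2 and 3 and a line at each group mean of 3 tumors. Col1a1, Col1a2, Col3a1, Col5a1, Col5a2, Col14a1 and Col6a1 share a pattern with nonobese isotype 2 and 3 and obese anti–PD-1 2 and 3 high, while Col4a5 is nearly level.

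In obese mice the 8 chains lower in nonobese mice were not called. Among the 33 chains, 0 were called higher and 1 lower with anti–PD-1, while 2.24% of all genes tested were called higher and 0.206% lower. No chain had an FDR below 0.05 in edgeR (lowest 0.613) or DESeq2, which likewise called 1, and 1 chain had an unadjusted P under 0.05 in edgeR (7.57% of all genes). Over all genes tested, 0 were below this FDR in edgeR and 105 in DESeq2. Leaving out each tumor gave 0 to 4 called chains, with 4 higher and 0 lower without obese anti–PD-1 tumor 1, 1 higher and 0 lower without obese isotype tumor 1, and 0 without obese anti–PD-1 tumor 2 or 3. The median log2 fold change of the 33 chains was 0.44 (all genes tested, -0.01), and 26 of the 33 were above 0 (47.6% of all genes). By class it was 0.45 for fibrillar, 0.24 for basement membrane, 0.28 for FACIT and 0.56 for other chains. Leaving out each tumor gave 0.06 to 0.72, -0.00 to 0.37, 0.12 to 0.60 and 0.23 to 0.83 in this order and 0.16 to 0.68 for all chains, and the basement membrane median was below 0 without obese isotype tumor 2. No chain had groups that did not overlap, whereas 5.45% of all genes lay wholly higher and 7% wholly lower.

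In each obese group a tumor was low for the chains given here. Col1a1 had a log2 fold change of 0.87 (SE 0.67, edgeR FDR = 0.807) and Col6a4 the highest at 1.502 (SE 0.78). The type VI chains had 82.8, 23.9 and 78.3 CPM (Col6a1), 69.2, 21.5 and 70.1 CPM (Col6a2) and 92.1, 24.6 and 111 CPM (Col6a3) in obese isotype tumors. Under anti–PD-1 they had 37.6, 112 and 152 CPM, 36.7, 101 and 130 CPM and 42.7, 137 and 170 CPM. Thus anti–PD-1 tumors 2 and 3 were above all obese isotype tumors for these 3 chains, and tumor 1 was below isotype tumors 1 and 3.

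Col11a2, a minor chain of cartilage fibrils, was the chain called lower (log2 fold change -1.20, SE 0.51, edgeR FDR = 0.613). It rested on obese isotype tumor 1, with 11.4 CPM against 1.82 and 2.77 CPM in the others of its group and 2.26, 2.51 and 2.28 CPM in obese anti–PD-1 tumors. Without that tumor the log2 fold change was 0.04. The nonobese tumors had 6.07, 4.38 and 4.32 CPM under isotype and 4.07, 4.98 and 5.89 CPM under anti–PD-1, so obese anti–PD-1 tumors were below every nonobese tumor. Col20a1, a little-studied FACIT, had the lowest log2 fold change of its class (-0.79, SE 0.66) and was not called. That value was -0.24 without obese isotype tumor 1 and -1.14 without obese anti–PD-1 tumor 3. Col20a1 had 5.26, 2.45 and 2.10 CPM in obese isotype and 1.48, 1.48 and 2.69 CPM in obese anti–PD-1 tumors, after 1.48, 3.06 and 2.04 and then 1.07, 1.92 and 9.23 CPM in the nonobese groups.

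**Figure D3:**
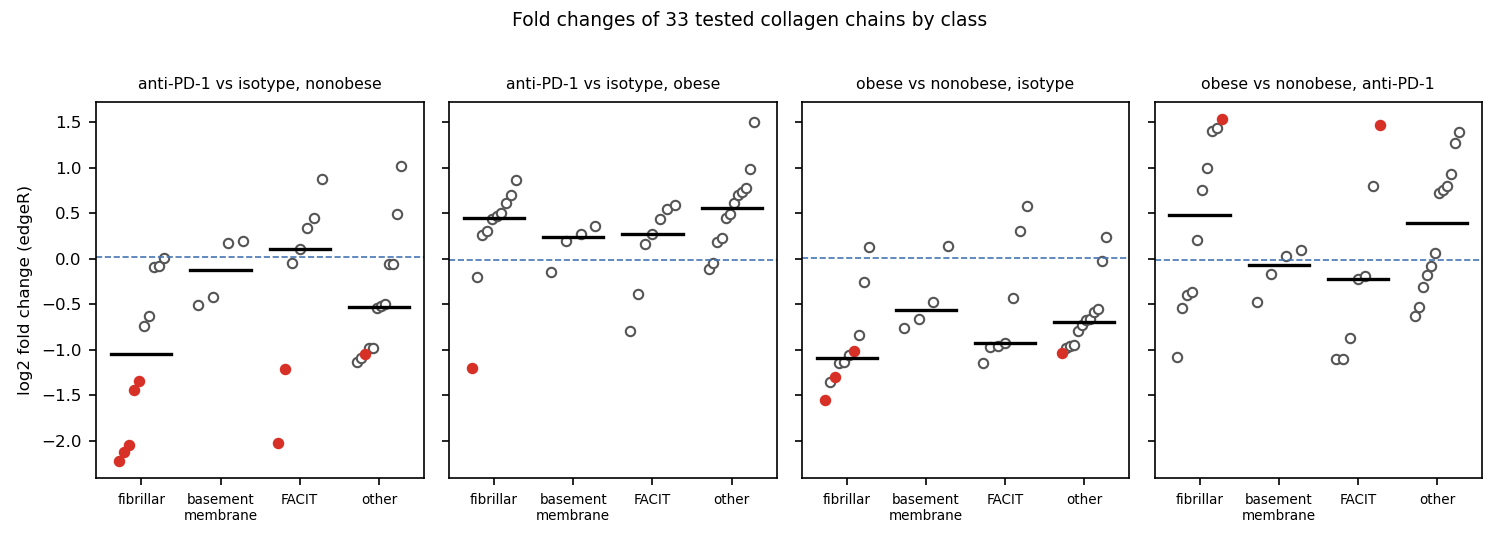
Log2 fold changes of the 33 tested chains (points, filled where called) by class in 4 comparisons, with black lines at class medians and a dashed line at the median of all genes tested. In nonobese mice the fibrillar median is -1.04 with anti–PD-1 while the basement membrane and FACIT medians lie near 0, and in isotype-treated obese mice all 4 class medians are below 0.

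Obese and nonobese tumors were next compared under isotype treatment, which asks how the diets differ without PD-1 blockade. This comparison uses the same isotype tumors as the treatment comparisons and is not independent of them. Of the 33 chains, 4 were called lower in obese tumors and 0 higher, with 1.12% and 0.244% of all genes tested called so. They were the fibrillar chains Col1a1 (log2 fold change -1.55, SE 0.68), Col5a1 (-1.02, SE 0.47) and Col11a1 (-1.30, SE 0.47), and Col13a1 (-1.03, SE 0.41), a membrane-spanning collagen. When each tumor was left out, the value of Col5a1 ran from -1.31 to -0.64. No FDR was below 0.05 in edgeR, where the lowest was 0.299, or in DESeq2, which called 2 and gave no adjusted P for Col11a1 and Col13a1. The genes below it among all tested numbered 0 in edgeR and 200 in DESeq2. At an unadjusted P below 0.05 in edgeR there were 10 chains, compared with 13.3% of all genes. The median log2 fold change was -0.80 over all chains (all genes tested, 0.01) and 28 of 33 were below 0 (47.9% of all genes).

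The median was below 0 in each class, at -1.09 for fibrillar, -0.57 for basement membrane, -0.93 for FACIT and -0.70 for other chains. Leaving out each tumor gave -1.36 to -0.71, -0.70 to -0.38, -1.09 to -0.65 and -0.92 to -0.51 in this order, with the fibrillar and basement membrane medians nearest 0 without obese isotype tumor 2, and the FACIT median was -0.43 with genes of at least 1 count. Obese isotype tumors had 474, 195 and 460 CPM of Col4a1 and 362, 116 and 309 CPM of Col4a2, all below every nonobese isotype tumor. Their log2 fold changes were -0.66 (SE 0.29) and -0.76 (SE 0.33), with an edgeR FDR of 0.356 for each and less than a 2-fold change. Col4a4 had 9.002, 7.41 and 9.21 CPM in these tumors (-0.47, SE 0.19), again without overlap. Its log2 fold change ran from -0.61 to -0.28 when each tumor was left out. Col4a5, at 27.6, 21.1 and 25.4 CPM, did overlap with nonobese tumors and had a log2 fold change of 0.14.

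Col11a1, a chain of cartilage fibrils, had 1.61, 2.85 and 1.31 CPM in nonobese and 1.14, 0.350 and 0.812 CPM in obese isotype tumors. In anti–PD-1 tumors it had 1.27, 1.11 and 1.38 CPM (nonobese) and 0.564, 1.38 and 0.867 CPM (obese). Col13a1 had 2.51, 3.17 and 1.76 CPM in nonobese and 1.64, 0.979 and 1.00 CPM in obese isotype tumors, and 1.12, 2.60 and 3.43 and then 1.76, 1.82 and 1.41 CPM in the anti–PD-1 groups. For both chains the isotype groups did not overlap. The same held for 9 of 33 chains in the lower direction (9.02% of all genes tested) and for 0 in the higher direction (10.4%). They were Col4a1, Col4a2, Col4a4, Col9a1, Col9a3, Col11a1, Col13a1, Col15a1 and Col18a1, so Col1a1 and Col5a1 were called although their groups overlapped.

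Col16a1 was at 101, 55.1 and 69.5 CPM in obese isotype tumors (-0.43, SE 0.17), and Col12a1 and Col14a1 had log2 fold changes of -0.96 and -1.14 that did not pass. The value of Col16a1 ran from -0.72 to -0.26 when each tumor was left out. Obese isotype tumors held 13.3, 5.46 and 15.5 CPM of Col12a1 and 8.24, 2.80 and 10.9 CPM of Col14a1. Col15a1, which links basement membrane to fibrils, had 82.2, 94.0 and 103 CPM in nonobese and 74.7, 31.8 and 68.4 CPM in obese isotype tumors, and 41.7, 66.3 and 89.3 CPM (nonobese) and 31.4, 85.2 and 89.1 CPM (obese) under anti–PD-1. Its log2 fold change with diet under isotype was -0.67 (SE 0.37). The number of chains called depended on single tumors. It was 0 without obese isotype tumor 2 or without nonobese isotype tumor 2, 2 without nonobese isotype tumor 3, 14 without nonobese isotype tumor 1, 10 without obese isotype tumor 1 and 7 without obese anti–PD-1 tumor 1. With all tumors it fell when the replicate number was a block. It rose with genes of at least 1 count or a model of only the tumors compared.

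Under anti–PD-1, obese tumors had 2 chains called higher than nonobese tumors and 0 lower, when 3.69% of all genes tested were called higher and 0.565% lower. They were Col1a1 (log2 fold change 1.54, SE 0.68, edgeR FDR = 0.456) and Col14a1 (1.48, SE 0.68, FDR = 0.482). With the replicate number as a block, 6 chains were called, 5 higher and 1 lower, and DESeq2 without the block called 1, lower. No FDR was below 0.05 for a chain in any of these fits, and the lowest in edgeR was 0.403, compared with 0.382% of all genes passing 0.05 in edgeR and 270 genes in DESeq2. An unadjusted P under 0.05 in edgeR was found for 3 chains and 10.3% of all genes. The median log2 fold change was 0.04 over the 33 chains (all genes tested, -0.01). By class it was 0.49 for fibrillar, -0.07 for basement membrane, -0.22 for FACIT and 0.39 for other chains. Leaving out each tumor gave 0.11 to 0.80, -0.16 to 0.02, -0.46 to -0.11 and 0.24 to 1.12 in this order. The median of all chains was then -0.16 to 0.39, below 0 without obese anti–PD-1 tumor 2 or 3, and that of basement membrane chains was above 0 without obese anti–PD-1 tumor 1.

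Obese anti–PD-1 tumors had 2.19, 13.7 and 17.3 CPM of Col14a1 and 7.90, 23.4 and 18.9 CPM of Col12a1, and in both cases tumor 1 was within the nonobese anti–PD-1 values and tumors 2 and 3 above them. Type IV chains were not called, with 293, 498 and 580 CPM of Col4a1 (0.04, SE 0.29) and 206, 359 and 443 CPM of Col4a2 (0.10, SE 0.33) in obese anti–PD-1 tumors. Col16a1 had 79.9, 83.7 and 89.7 CPM in these tumors. Col4a4 was at 11.4, 10.4 and 7.66 CPM, below every nonobese anti–PD-1 tumor (-0.48, SE 0.19, edgeR FDR = 0.403), and Col4a5 at 24.9, 23.4 and 19.02 CPM.

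Col23a1, a membrane-spanning collagen, was wholly higher in obese anti–PD-1 tumors, at 0.917, 1.08 and 0.867 CPM against 0.559, 0.402 and 0.223 CPM in nonobese ones (1.27, SE 0.61, edgeR FDR = 0.504). Under isotype it had 0.257, 0.529 and 0.966 CPM in nonobese and 0.547, 0.979 and 0.191 CPM in obese tumors, so the groups overlapped. It was the only chain of 33 without overlap in the higher direction (6.54% of all genes tested), and Col11a2 and Col4a4 were the 2 in the lower direction (7.06%). Col6a4 had 0.450, 0.118 and 0.114 CPM in nonobese isotype, 0.508, 0.495 and 0.446 in nonobese anti–PD-1, 0.168, 0 and 0.239 in obese isotype and 0.212, 0.443 and 0.593 CPM in obese anti–PD-1 tumors. Those are levels of a few reads. The count of 2 called chains became 12 without obese anti–PD-1 tumor 1, 7 without obese isotype tumor 2 and 5 without nonobese isotype tumor 1. It became 0 without obese anti–PD-1 tumor 2, and 1 when nonobese anti–PD-1 tumor 2 or 3, nonobese isotype tumor 2 or 3, obese anti–PD-1 tumor 3 or obese isotype tumor 1 was left out.

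Whether the response to anti–PD-1 differed with diet was tested directly, as the obese response minus the nonobese response. In this test 10 of 33 chains were called higher and 0 lower, compared with 4.93% and 0.832% of all genes tested. They comprised 5 of the 10 fibrillar chains (Col1a1, Col1a2, Col3a1, Col5a1 and Col5a2), 2 of 7 FACITs (Col12a1 and Col14a1), 3 of 12 other chains (Col6a1, Col6a2 and Col6a3) and 0 of 4 type IV chains. All 10 FDR values in edgeR lay between 0.208 and 0.339, so none passed 0.05, and DESeq2 called 9 with none below an FDR of 0.05, which 0 of all genes tested passed in edgeR and 283 in DESeq2. The same 10 chains had an unadjusted P under 0.05 in edgeR, compared with 12.9% of all genes. The median difference was 1.41 log2 units for fibrillar, 0.35 for basement membrane, 0.10 for FACIT and 1.01 for other chains, with 0.73 for all 33 chains and -0.04 for all genes tested. Without each tumor the fibrillar median was 1.06 to 1.80, that of basement membrane chains 0.16 (without obese isotype tumor 2) to 0.48, that of other chains 0.78 to 1.55 (without nonobese isotype tumor 1) and that of all chains 0.49 to 1.13. The basement membrane median was larger when Col15a1 and Col18a1 were added to that class. The FACIT median was -0.12 to 0.43, below 0 without nonobese isotype tumor 2, obese anti–PD-1 tumor 2 or obese isotype tumor 2 or 3.

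Col1a1 differed most, by 3.10 log2 units (SE 0.96, edgeR FDR = 0.208). It fell by 2.22 in nonobese mice and had a value of 0.87 in obese mice. Col1a2 differed by 2.75 (SE 0.93) and Col3a1 by 2.59 (SE 0.96). Col6a1, Col6a2 and Col6a3 differed by 1.71 to 1.75, whereas Col6a4 had a value of 0.48 (SE 1.03) and Col5a3 one of 1.05 that did not pass. The abundant type IV chains had smaller values that did not pass, 0.70 (SE 0.41) for Col4a1 and 0.86 (SE 0.47) for Col4a2, and Col4a4 had -0.00 (SE 0.28). The value of Col4a2 ran from 0.52 to 1.18 when each tumor was left out. The tested chains not described singly were called in no comparison. Among them, Col18a1, a basement membrane zone chain, ranged from 24.7 to 96.4 CPM and differed by 0.72 (SE 0.47) between responses. The network-forming chains Col8a1 (1.93 to 20.7 CPM) and Col8a2 (0.0508 to 1.87 CPM) differed by 1.47 (SE 0.83) and 2.11 (SE 1.2). Col7a1, the anchoring fibril chain, ranged from 0.492 to 3.03 CPM, Col27a1 from 1.35 to 5.71 CPM, Col2a1 from 0.210 to 2.66 CPM and Col10a1 from 1.35 to 3.19 CPM. Leaving out nonobese isotype tumor 3 or obese anti–PD-1 tumor 3 left 6 chains called, and leaving out obese anti–PD-1 tumor 1 gave 16, all of them higher.

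**Figure D4:**
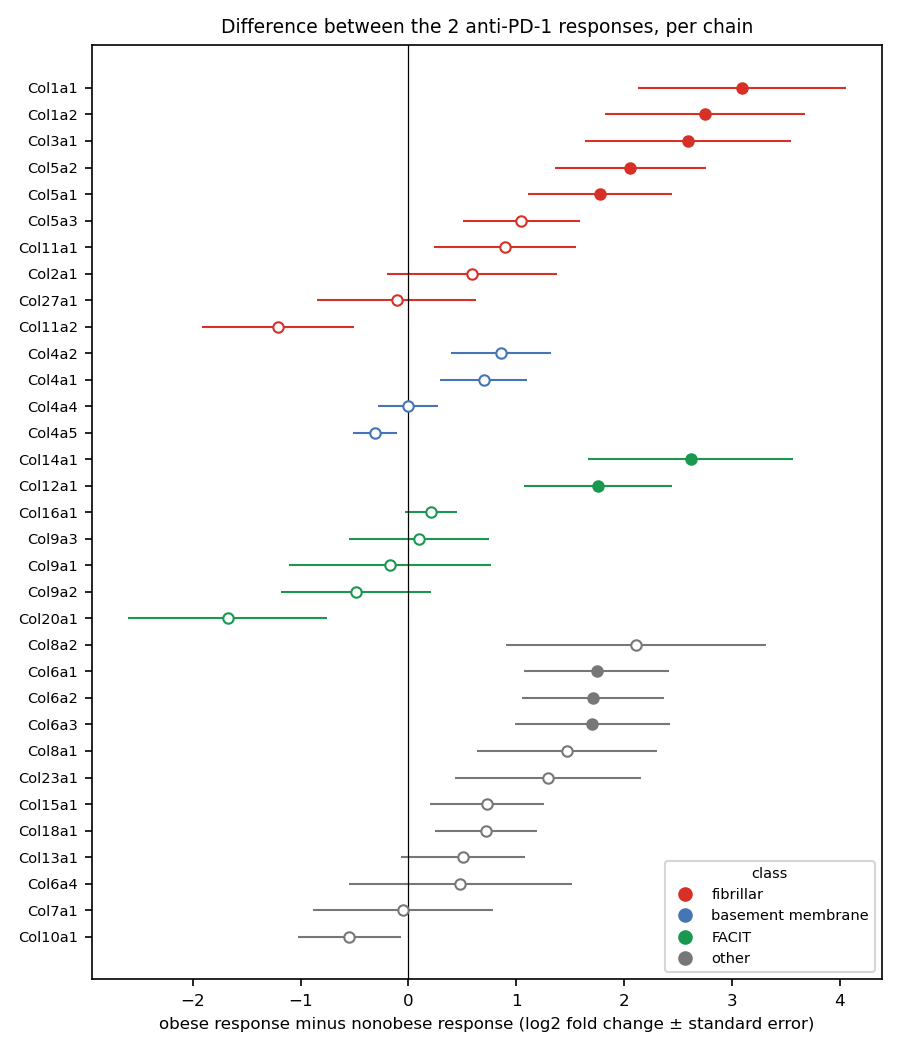
Obese response minus nonobese response to anti–PD-1 for each of the 33 chains (horizontal axis, log2 fold change ± standard error), colored by class and filled where called. Col1a1 is farthest to the right at 3.10, the filled symbols are Col1a1, Col1a2, Col3a1, Col5a1, Col5a2, Col6a1, Col6a2, Col6a3, Col12a1 and Col14a1, and the 4 basement membrane chains lie between -0.31 and 0.86 with open symbols.

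Chains that assemble together were followed within tumors. Over the 12 tumors, log2 CPM of Col1a1 and Col1a2 had a Pearson r of 0.990 (rho 0.993), Col4a1 and Col4a2 an r of 0.994 (rho 0.958), Col6a1 and Col6a2 an r of 0.995 (rho 0.993) and Col5a1 and Col5a2 an r of 0.979 (rho 0.972). Of 9 pairs computed, 7 had r above 0.9, each with a permutation p of 1e-05, the smallest that these permutations can give (1.29e-05 after Benjamini-Hochberg adjustment). Spearman p values of these 7 were at most 3e-05 (3.86e-05 adjusted). These 7 values were from 0.935 to 0.992 when the 2 tumors farthest from the median were left out, and from 0.957 to 0.994 within groups.

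Other pairs were followed in the same way. Col1a1 and Col4a1 had an r of 0.840 (rho 0.825, permutation p = 0.00021 and 0.00147, adjusted 0.000236 and 0.00165), which was 0.652 without the 2 farthest tumors and 0.880 within groups. Col1a1 and Col3a1 had an r of 0.948 (rho 0.965), Col1a1 and Col6a1 0.969 (rho 0.972) and Col6a1 and Col6a3 0.980 (rho 0.979). Serpinh1, the chaperone dedicated to collagen in the endoplasmic reticulum, had an r with Col1a1 of -0.391 (rho -0.427, permutation p = 0.209 and 0.169), which was -0.114 without the 2 farthest tumors and 0.228 within groups.

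The ratio of Col1a1 to Col1a2 per length was between 2.15 and 2.96 in 11 tumors and 1.61 in obese isotype tumor 2. Col4a1 to Col4a2 ran from 1.14 to 1.49 and Col6a1 to Col6a2 from 1.90 to 2.31. In contrast, Col3a1 to Col1a1, both fibrillar, ran from 0.351 in nonobese isotype tumor 1 to 1.21 in obese isotype tumor 2. Col1a1 to Col4a1 ran from 0.276 in obese isotype tumor 2 to 1.89 in nonobese isotype tumor 3. Fibrillar chains accordingly made up 29.1%, 55.7% and 55.1% of the summed length-scaled collagen level in nonobese isotype and 20.5%, 29.0% and 30.5% in nonobese anti–PD-1 tumors. In obese tumors their share was 40.6%, 26.1% and 43.5% under isotype and 33.8%, 45.9% and 48.2% under anti–PD-1. Type IV chains took between 25.4% and 53.8%, FACITs between 3.39% and 9.47%, and other chains between 15.1% and 21.1%. The absolute ratios depend on which transcript gives the length, and their fold variation between tumors does not. The class shares were computed with merged exons only, and both their size and their spread between tumors depend on that choice. Col1a2, for example, has 12426 bases of merged exons and 5348 in its longest transcript, against 6619 and 6450 for Col4a2.

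**Figure D5:**
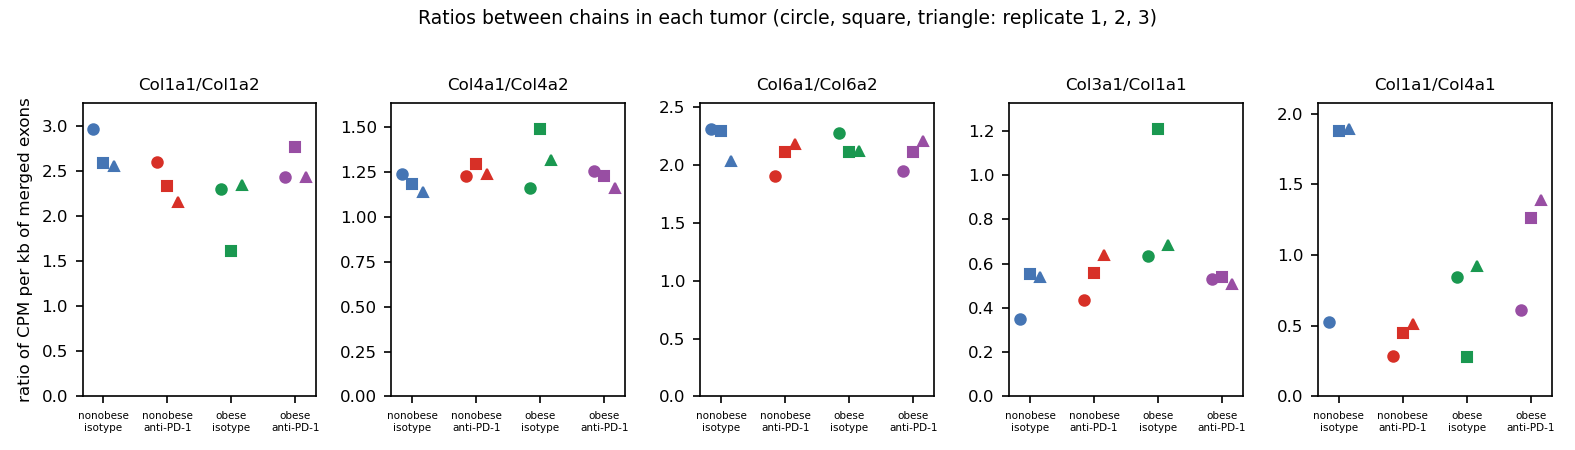
Ratios of length-scaled levels (CPM per kilobase of merged exons, linear axes from 0) between chains in each of the 12 tumors, by group, with circles, squares and triangles for replicates 1, 2 and 3. Ratios of partner chains run from 1.61 to 2.96 for Col1a1 to Col1a2, 1.14 to 1.49 for Col4a1 to Col4a2 and 1.90 to 2.31 for Col6a1 to Col6a2, and Col1a1 to Col4a1 runs from 0.276 to 1.89.

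Genes that make, bind and degrade collagen were examined as 8 lists with 81 genes, 74 of them tested. In nonobese mice 12 were called lower with anti–PD-1 and 0 higher, in obese mice 0 lower and 1 higher. Obese isotype tumors had 2 called lower and 0 higher than nonobese ones, and obese anti–PD-1 tumors 6 higher and 1 lower. In the difference between the responses 16 were called higher and 0 lower. The shares of all genes called are those given for the same comparisons, and the median log2 differences of the 74 genes were -0.25, 0.04, -0.29, 0.06 and 0.30 in this order.

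Calls are given by step of collagen synthesis. Of 15 prolyl and lysyl hydroxylases, their cofactors and glycosyltransferases, 0 were called in either treatment comparison, and P4ha3 alone was called in the difference (2.11, SE 0.90). Of 7 chaperone and export genes tested, Creb3l1, a transcription factor of collagen-secreting cells, was called in the difference (1.01, SE 0.27), while the median of the 7 was -0.34. Serpinh1 (-0.62, SE 0.17), Fkbp14 (-0.65, SE 0.21) and Sec24d (-0.45, SE 0.17) were below 0 there, with an edgeR FDR of 0.148, 0.229 and 0.290 and less than a 2-fold change. Serpinh1 had 809, 848 and 767 CPM in nonobese isotype, 875, 954 and 1054 in nonobese anti–PD-1, 1225, 1058 and 1072 in obese isotype and 854, 961 and 779 CPM in obese anti–PD-1 tumors. Its lowest value was in nonobese isotype tumor 3, where Col1a1 was highest, and its log2 fold changes of 0.25 (nonobese), -0.37 (obese) and 0.47 (diet under isotype, SE 0.12, edgeR FDR = 0.185) were below 2-fold. Of 6 propeptide processing genes tested, Adamts2, which removes the amino propeptide, was called in the difference (1.55, SE 0.61).

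Among 5 cross-linking enzymes, Lox and Loxl1 were called lower in nonobese mice and higher in the difference (2.57, SE 0.80 and 2.66, SE 0.76). Lox, a lysyl oxidase, had 4.24, 17.4 and 20.7 CPM in nonobese isotype and 2.08, 3.90 and 3.88 CPM in nonobese anti–PD-1 tumors (-2.08, SE 0.58), and 11.6, 2.73 and 8.69 and then 6.204, 10.1 and 16.2 CPM in the obese groups. Of 9 fibril-binding proteins, 5 were called lower in nonobese mice (Bgn, Dcn, Dpt, Postn and Tnxb), and the same 5 were called in the difference. Decorin (Dcn) had 3.08, 16.7 and 17.6 CPM in nonobese isotype and 2.49, 3.71 and 5.17 CPM in nonobese anti–PD-1 tumors (-1.70, SE 0.60), and these overlapped at nonobese isotype tumor 1. Of 13 basement membrane partners tested, Lama2, a laminin chain, was called in nonobese mice, lower, and in the difference. Of 9 receptors tested, the inhibitory leukocyte collagen receptor Lair1 (-1.16, SE 0.44) and the collagen uptake receptor Mrc2 were called lower in nonobese mice and higher in the difference (1.87, SE 0.61 and 1.90, SE 0.83). Of 10 degradation genes tested, Mmp2 and Mmp3 were called lower in nonobese mice, and Mmp13, a collagenase, higher in obese mice (1.24, SE 0.55), and all 3 were called higher in the difference (1.74 for Mmp2, 2.81 for Mmp3 and 2.01 for Mmp13).

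Markers of stromal and other cell types were examined in the same comparisons, and the shares of all genes called are those given above. Of all genes tested, 2.31% were called lower in nonobese mice and 2.24% higher in obese mice. Between diets 1.12% were called lower under isotype and 3.69% higher under anti–PD-1, and 4.93% were higher in the difference. Of 10 fibroblast markers, 7 were called lower with anti–PD-1 in nonobese mice, 0 in obese mice, 0 between diets under isotype, 6 higher in obese anti–PD-1 tumors and 7 higher in the difference. Dcn, Lum and Dpt are also in the fibril-binding list. The sum of all 10 fibroblast markers was 240 to 317 CPM in nonobese isotype and 217 to 226 CPM in nonobese anti–PD-1 tumors. In obese tumors it was 140 to 230 CPM under isotype and 164 to 280 CPM under anti–PD-1. Fbln1 made up 63.4% of this sum. Without Fbln1 it was 72.5 to 154, 46.6 to 68.8, 38.2 to 90.5 and 40.8 to 127 CPM in the same order. None of the 10 was at 0 in any tumor.

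Of 8 adipocyte markers, 4 were called lower with anti–PD-1 in nonobese mice, 8 higher in obese mice, 5 lower between diets under isotype and 8 higher under anti–PD-1. They summed to 19.5 to 46.1 CPM in nonobese isotype, 14.6 to 25.0 in nonobese anti–PD-1, 15.6 to 24.2 in obese isotype and 37.2 to 90.9 CPM in obese anti–PD-1 tumors, and Plin1, Lep and Retn were at 0 in some tumors. Fabp4 made up 63.6% of this sum. Without Fabp4 it was 6.17 to 23.7, 1.07 to 6.82, 1.39 to 4.55 and 11.1 to 46.1 CPM in the same order. Of 6 macrophage markers, 4 were called lower in nonobese mice, 1 higher in obese mice, 2 lower and 5 higher between diets under isotype and anti–PD-1, and 6 in the difference. Their sums were 166 to 365, 116 to 149, 121 to 233 and 176 to 392 CPM in the 4 groups in the order above. Skeletal muscle markers, 9 genes, summed to 17.7 to 362, 8.18 to 365, 11.1 to 135 and 42.1 to 604 CPM, of which the obese comparison of antibodies called 2 higher and the difference 2. All 8 adipocyte markers were called higher in the difference.

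Mural cell markers, 8 genes, summed to 154 to 187, 94.1 to 147, 63.2 to 152 and 69.6 to 183 CPM, with 0 called in comparisons of 2 groups and 1 higher in the difference. Endothelial markers, 8 genes, summed to 151 to 181, 116 to 159, 99.7 to 164 and 121 to 189 CPM, with 1 called lower in nonobese mice 1 higher with diet under anti–PD-1 and 1 higher in the difference. Keratinocyte markers, 8 genes, summed to 1.02 to 7.99 CPM in nonobese isotype tumors and at most 0.738 elsewhere, and each was at 0 in some tumor. Only 1 of them was tested, which was called lower in nonobese mice with anti–PD-1 and in obese isotype tumors, and higher in the difference. Chondrocyte markers, 5 genes, summed to 6.27 to 14.4 CPM, mostly Hapln1, with Acan, Comp and chondromodulin (Lect1) at 0 in some tumors, and of 2 tested 0 were called. The part of these cell types in the differences of collagen chains was not tested.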

How the data were processed

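RNA of 12 B16-F10 tumors was measured with stranded poly(A) libraries and 100-bp single-end reads. The deposited values are raw counts per gene, which the authors obtained after FastQC 0.11.5 with STAR 2.7.0f on mm10 and HTSeq 0.9.1. The strand setting and annotation of the counting are not given in the sources used here.

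Counts were analyzed with edgeR 4.0.16 in R 4.3.3. Trimmed mean of M-values scaling, the quasi-likelihood F-test and a call at more than 2-fold with unadjusted P under 0.05 followed the methods of the authors, who used edgeR 3.28.1. The filterByExpr filter and 1 model of 4 group means over 12 tumors were chosen here. Of 23420 genes, 17519 had counts and 13095 were tested. Benjamini-Hochberg FDR was taken over all genes tested. SE is the absolute log2 fold change divided by the square root of F. The spread is that between tumors, labelled as replicates within a group, and p-values measure only that spread. Correlations used 100000 permutations, two-sided. Lengths and gene coordinates were from GENCODE M21 (GRCm38) and promoter windows from RefSeq (GRCm38.p6). Scripts were tested on simulated data. For 8 list genes the table's older symbol was used through RefSeq synonyms.

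All members were accounted for by class. Values in every tumor were given for members called in any comparison, for the 8 with the highest length-scaled mean and for the lowest P in each class and comparison, and partners were named from those called. The members and lists were chosen with earlier results of these data known. The replicate numbers in the labels belong to different mice, and no source ties them to a batch. Deviations from group means of same-numbered tumors correlated above 0.1 in all 3 pairs of the 2 anti–PD-1 groups (0.111 to 0.443, mean 0.301), so the blocked count stands beside that comparison. In no other comparison of 2 groups did all 3 pairs do so. Between the nonobese groups 2 of 3 pairs were above 0.1 (0.00065 to 0.548, mean 0.272). Between the obese groups 1 pair was (mean -0.0527), as was 1 between the isotype groups (mean -0.0356).

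Alternatives were other scaling, DESeq2 1.42.0, other count filters, a model of only the tumors compared, the replicate block, another class for Col15a1 and Col18a1, transcript length and leaving out each tumor.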

Additional observations from a re-analysis of the deposited data

Results flagged for a closer look

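The response to anti–PD-1 differed between obese and nonobese mice, by a test of the difference itself (more than 2-fold, unadjusted P under 0.05), for 10 chains, all higher, compared with 4.93% of all genes tested called higher and 0.832% lower. The count was 6 without nonobese isotype tumor 3 or obese anti–PD-1 tumor 3 and 16 without obese anti–PD-1 tumor 1. The differences in log2 units, obese minus nonobese, were 3.10 for Col1a1, 2.75 for Col1a2, 2.62 for Col14a1, 2.59 for Col3a1 and 2.06 for Col5a2. They were 1.78 for Col5a1, 1.76 for Col12a1, 1.75 for Col6a1 and 1.71 for each of Col6a2 and Col6a3. None had an edgeR FDR below 0.05.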

How the results depend on the processing

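Alternatives were run for the log2 fold changes of called chains and of the chain with the lowest P in each class and comparison. These kept their direction, apart from Col11a2 in obese mice, which was 0.0403 without obese isotype tumor 1 (range -1.59 to 0.0403 over the 12 fits without a tumor). Counts of called chains were 5 to 11 in nonobese mice, 0 to 4 in obese mice, 0 to 14 between diets under isotype, 0 to 12 under anti–PD-1 and 6 to 16 in the difference when each tumor was left out. With the replicate block, the counts of called chains were 0 in obese mice, 6 between diets under anti–PD-1 and 2 between diets under isotype, and 9 in nonobese mice and 10 in the difference. Both pairings by number and the block rest on labels alone, and 5 of 12 tumors correlated best with a tumor of their own number. With genes of at least 1 count, the counts were 2 in obese mice, 6 and 7 between diets under anti–PD-1 and isotype, and 4 under anti–PD-1 with at least 10 counts in every tumor. Between diets under anti–PD-1 and isotype, DESeq2 gave 1 (lower, where edgeR called 2 higher) and 2, and a model of only the tumors compared gave 6 and 8, with 0 in obese mice. The basement membrane median in nonobese mice was 0.0105 with at least 1 count, where 6 chains were included, and -0.46 with Col15a1 and Col18a1 added, with which its difference between responses was 0.71. The FACIT median between diets under isotype was -0.43 with at least 1 count. Without each tumor the median of FACIT chains in nonobese mice ran from -0.41 to 0.31, that of other chains there from -1.04 to -0.43 and between diets under anti–PD-1 from 0.24 to 1.12. With the longest transcript as length, median ratios were 1.16 for Col1a1/Col1a2, 0.870 for Col3a1/Col1a1, 1.36 for Col4a1/Col4a2 and 1.34 for Col6a1/Col6a2. The cause of these shifts was not tested, beyond the change in tumors or genes included. With 3 tumors a group an exact test of a single value cannot go below P = 0.1, and chains with under about 100 reads in total, such as Col6a4, have large errors. Col11a1 and Col23a1 also rested on few reads in each tumor. Col11a1 had 27, 5 and 17 reads in obese isotype tumors. Col23a1 had 11, 13 and 5 reads in nonobese and 13, 22 and 19 reads in obese anti–PD-1 tumors.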
